A study of Homo sapiens with 6 samples.

Results

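The G2/M and mitosis genes are transcripts that dividing cells make in bulk as they approach and pass through mitosis. They were taken as 35 named genes, each read from the Affymetrix probe sets whose platform annotation gives that gene as the only symbol. Where a gene had several such probe sets, the one with the highest mean over all arrays stood for it. All 35 genes were found, on 69 of the 54613 probe sets tested and among 19775 genes with a probe set of their own. The cells were BL-2, an established Burkitt lymphoma line. One group was left without treatment and the other received lipopolysaccharide (LPS), an outer membrane component of Gram-negative bacteria, for 6 h, with 3 arrays of total RNA in each group. Nothing in the labels ties the arrays of a group to separate cultures. The p-values therefore rest only on how far these samples spread, which may be technical. The sources used here state no LPS dose. All samples come from 1 line, so the values describe that line only.

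Entry into mitosis is driven by the kinase CDK1 bound to cyclin A or B and released from inhibition by CDC25 phosphatases. PLK1 and the Aurora kinases then build the spindle, kinetochores tie chromosomes to it, and the spindle checkpoint holds anaphase back until every kinetochore is attached. Ubiquitination by the anaphase-promoting complex with CDC20 destroys securin and the B cyclins, after which the cells complete cytokinesis. Burkitt lymphoma cells cycle fast, and Ki-67, the product of MKI67, is the stain by which pathologists judge this. Transcription of these genes peaks late in the cell cycle and is governed by the MuvB complex, which represses them with the DREAM proteins in resting cells and activates them with MYBL2 and FOXM1 in cycling cells.

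MuvB contacts DNA at a short element called the CHR, and the factor NF-Y binds CCAAT boxes placed upstream of it. The promoters of 6 members are shown to set stretches with this arrangement beside stretches that lack part of it. Their genes lie at different points of the results: PLK1 with the smallest difference after LPS, the cyclin gene CCNB2, BUB1B among the members on the higher side (ECT2, the highest, is not shown), KIF20A and ASPM on the lower side, and MKI67 with the widest spread. Each promoter shown is the stretch of 120 bases that ends just before the annotated start, 5′ to 3′, from RefSeq on GRCh38.p14. Capitals mark the letters of a CHR (TTTGAA, its reverse complement TTCAAA, or the related TTCGAA) or of a CCAAT box (CCAAT or ATTGG), which between them cover both strands.
PLK1, chr16:23678769-23678888, plus strand: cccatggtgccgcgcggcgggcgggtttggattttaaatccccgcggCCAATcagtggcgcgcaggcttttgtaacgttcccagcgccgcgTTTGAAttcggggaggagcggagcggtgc
CCNB2, chr15:59105026-59105145, plus strand: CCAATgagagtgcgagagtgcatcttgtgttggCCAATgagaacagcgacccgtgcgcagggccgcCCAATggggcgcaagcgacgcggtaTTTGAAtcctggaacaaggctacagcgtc
BUB1B, chr15:40160949-40161068, plus strand: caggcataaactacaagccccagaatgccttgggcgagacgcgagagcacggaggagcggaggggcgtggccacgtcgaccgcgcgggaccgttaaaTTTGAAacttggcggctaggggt
KIF20A, chr5:138178992-138179111, plus strand: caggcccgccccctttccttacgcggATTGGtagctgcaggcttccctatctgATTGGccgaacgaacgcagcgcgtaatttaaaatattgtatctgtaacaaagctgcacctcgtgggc
ASPM, chr1:197146670-197146789, minus strand: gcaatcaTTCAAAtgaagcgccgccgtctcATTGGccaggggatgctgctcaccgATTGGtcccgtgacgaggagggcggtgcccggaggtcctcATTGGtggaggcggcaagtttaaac
MKI67, chr10:128126424-128126543, minus strand: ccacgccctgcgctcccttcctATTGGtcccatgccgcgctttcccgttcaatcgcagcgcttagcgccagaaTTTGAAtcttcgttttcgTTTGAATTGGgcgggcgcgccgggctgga

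In PLK1 and in CCNB2 the CHR begins 29 bases before the start, with 1 CCAAT box above it in PLK1 and 3 in CCNB2. In MKI67 the CHR nearest the start shares 1 base with a CCAAT box. The KIF20A stretch holds 2 CCAAT boxes and none of the CHR spellings searched, and the BUB1B stretch holds a CHR and no CCAAT letters. In ASPM the CHR letters lie farther from the start than all 3 CCAAT boxes shown. A further CCAAT box lies above them, at -134 from the start and so outside the stretch shown. RefSeq windows running from 250 bases before to 50 bases after a start were matched to 30 members, in 40 windows, and the members not matched were AURKA, TTK, TPX2, BIRC5 and UBE2C. CHR letters stood in 65% of the members' windows against 16.4% of all 35116 windows of that length, CCAAT letters in 75% against 34.6%, and both in 55% against 6.38%. These are matches of letters and not measured binding, and a motif this short recurs by composition alone.

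Any 2 arrays correlated at 0.992 to 0.997 across probe sets. The arrays fall into 2 sets by the mean level of the bacterial and phage transcripts spiked into each hybridisation: control 1, LPS 1 and LPS 2 (10.20 to 10.29 on the log2 scale, set A), and control 2, control 3 and LPS 3 (10.51 to 10.61, set B). Set and group overlap, so LPS differences are also given within each set and with the set in the fit. The 3′ minus 5′ values, a reading of RNA integrity, were 0.37 to 0.41 for ACTB in set A against 0.44 to 0.48 in set B. Those of GAPDH overlapped, at 0.13 to 0.15 against 0.14 to 0.16. The 9 B cell markers measured had control levels from 8.95 to 13.05, and 8 of them lay below 0 after LPS with 0 passing the test (median -0.20, log2). With array set as a block, 3 of the 9 passed as lower (limma, lowest adjusted p = 0.00954), where 2.02% of all genes passed in either direction. The 8 monocyte and the 8 T and NK cell markers had control levels from 5.83 to 6.76 and 0 calls, around the array medians of 6.42 to 6.47. The members themselves had control levels between 7.99 and 11.78, all above the array medians.

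Of the 35 G2/M and mitosis genes, 0 passed the limma test after LPS in either direction (Benjamini-Hochberg adjusted p under 0.05 over all probe sets), and the lowest adjusted p was 0.469. Over all genes, 0.182% passed as higher and 0.207% as lower, shares at which 35 genes hold few calls or none. At an unadjusted p under 0.05 stood 1 member on the higher side, ECT2, where the share over all genes was 4.97%, and 2 on the lower side, KIF20A and ASPM, where it was 4.59%. Differences (LPS minus control, log2 scale) ran from -0.25 to 0.23, with 17 members above 0 and 18 below. Their median was -0.0017, and that of all genes was 0.0016, with 49.2% of all genes below 0. Genes with a mean level above 8, where most members lie, had a median of 0.03, with 42% below 0. With quantile normalisation the members' split became 11 above and 24 below 0, with a median of -0.04. RNA was taken from whole cultures, so a change in the share of cells in G2/M and a change in transcript per cell cannot be told apart here.

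The precision sets what these arrays could have shown. The 95% intervals of all 35 differences, not adjusted for the number of genes, lay within a 1.5-fold change in either direction. The widest bounds were -0.51 for CENPF and 0.42 for MKI67. The test draws each gene's spread toward that of genes of like level, which narrows the intervals of the most variable members. MKI67 had an SE of 0.21 beside a pooled SD within groups of 0.44, and CENPF 0.15 beside 0.28. For such members the 1.5-fold bound rests on that step, and intervals without it were not computed. The median standard error was 0.092, and over all genes with a mean level above 8 it was also 0.092.

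**Figure D1:**
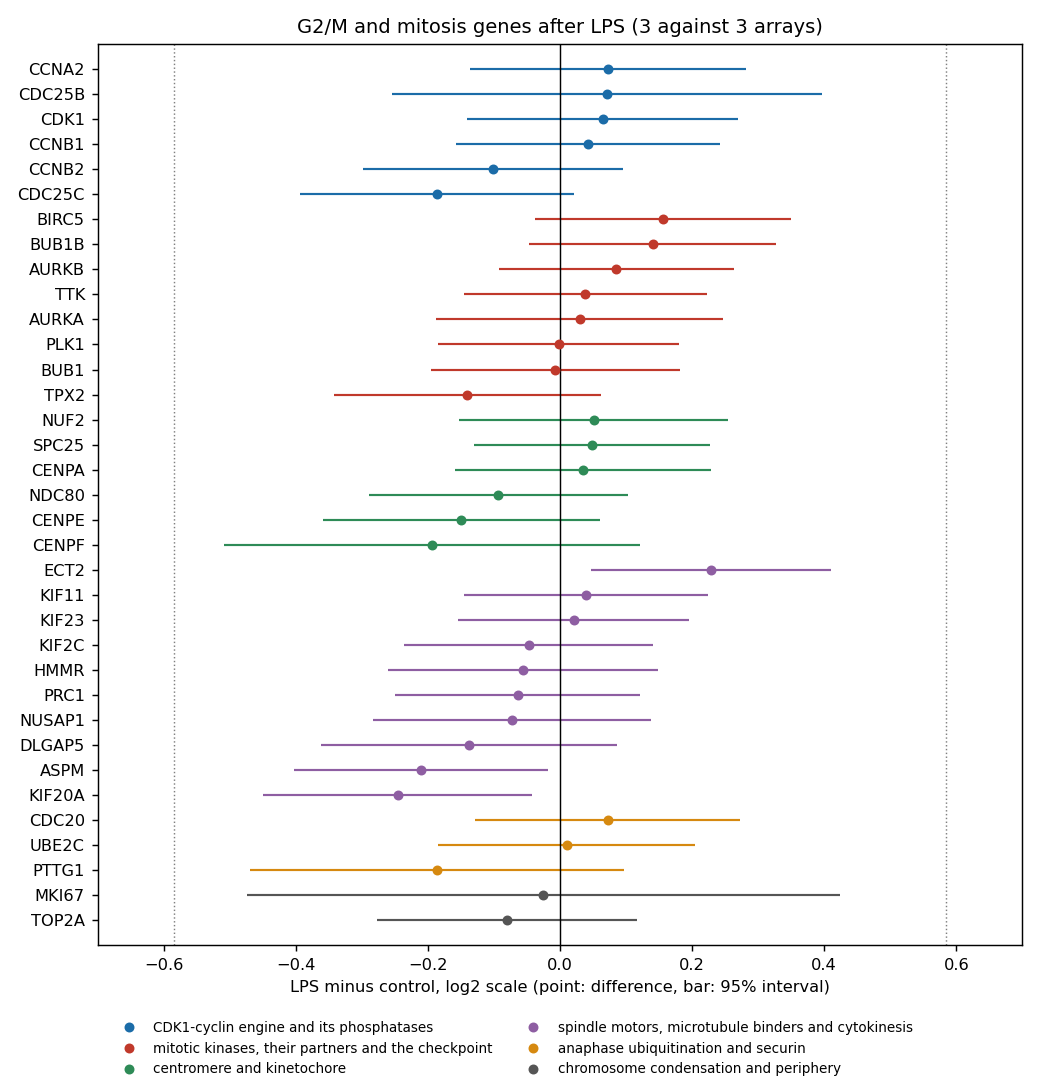
LPS minus control on the log2 scale for the 35 genes, grouped by role in colour, with 95% intervals from limma (3 against 3 arrays) as bars and dotted lines at a 1.5-fold change. Every bar stays inside the dotted lines, and ECT2, ASPM and KIF20A are the genes whose bar does not cross 0.

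The CDK1-cyclin engine held 6 members, 4 of them above 0, with 0 passing and a median of 0.05. CDK1, the kinase that drives mitotic entry, read 11.69, 11.86 and 11.78 on controls 1 to 3 and 11.86, 11.74 and 11.93 on LPS 1 to 3. Control and LPS values overlapped, and the difference was 0.06 (SE 0.095, limma adjusted p = 0.924). CCNB2, one of the B cyclins, read 10.88, 10.97 and 10.92 in controls and 10.81, 10.74 and 10.92 in LPS cells, a difference of -0.10 (adjusted p = 0.851). CCNB1, the other B cyclin, stood at 0.04, and cyclin A2, CCNA2, at 0.07. The dimmer CCNA2 probe set gave a larger value: it read 10.53, 10.44 and 10.42 in controls and 10.80, 10.75 and 10.63 in LPS cells. Its groups did not overlap, and its difference of 0.27 did not pass (adjusted p = 0.419).

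CDC25C, a phosphatase that releases CDK1 from inhibition, read 7.87, 8.15 and 8.07 in controls and 7.75, 7.75 and 8.04 in LPS cells. The LPS 3 value lay among the controls and above the other two LPS values, and the difference was -0.19 (adjusted p = 0.672). Within the array sets it was smaller, at -0.12 in set A and -0.07 in set B. Its relative CDC25B stood at 0.07 overall but below 0 within both sets, at -0.15 and -0.05, none of them passing where tested.

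Among the 8 mitotic kinases, their partners and checkpoint proteins, 5 lay above 0 and 0 passed, with a median of 0.03. PLK1, the Polo kinase needed from centrosome maturation to cytokinesis, read 9.18, 9.22 and 9.09 in controls and 9.19, 9.07 and 9.21 in LPS cells. The groups covered the same range, with means of 9.16 ± 0.068 and 9.16 ± 0.077 (SD, n = 3 each) and an interval for the difference from -0.18 to 0.18. BIRC5, or survivin, a subunit of the chromosomal passenger complex, read 10.61, 10.64 and 10.64 in controls and 10.79, 10.69 and 10.87 in LPS cells. All LPS values were above all controls, at a difference of 0.16 (SE 0.090, adjusted p = 0.724). Its dimmer probe sets gave 0.09, 0.06 and -0.06.

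BUB1B, which encodes the checkpoint protein BUBR1, read 11.21, 11.24 and 11.21 in controls and 11.33, 11.37 and 11.38 in LPS cells. The values within each group lay close together (SD 0.017 and 0.024, n = 3 each) and did not overlap, at a difference of 0.14. The test, which draws each gene's spread toward that of genes of like level, gave it an SE of 0.087 and an adjusted p of 0.751. Within the array sets BUB1B stood at 0.14 and 0.15. AURKB, the passenger complex kinase, was also separated, at 0.09 (adjusted p = 0.867). TPX2, which activates AURKA on spindle microtubules, was separated the other way: it read 10.98, 11.04 and 11.20 in controls and 10.96, 10.90 and 10.94 in LPS cells, a difference of -0.14 (adjusted p = 0.772). AURKA itself stood at 0.03, the checkpoint kinase TTK at 0.04 and BUB1 at -0.0071.

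Counted over all members, the groups were separated with LPS higher in 4 (AURKB, BUB1B, BIRC5 and ECT2), where the share over all genes was 7.95%. They were separated with LPS lower in 3 (TPX2, KIF20A and ASPM), where that share was 7.8%. Of the 5966 genes with a mean level above 8, 838 were separated with LPS higher and 552 with LPS lower.

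The 6 centromere and kinetochore genes were split evenly, 3 above and 3 below 0, with 0 passing and a median of -0.03. CENPF, a large protein of the outer kinetochore, read 8.81, 9.10 and 9.56 in controls and 8.82, 8.996 and 9.07 in LPS cells. The difference of -0.19 (SE 0.15, adjusted p = 0.811) rests on control 3, whose value exceeded every other array. Without that array it was 0.0088. CENPF stood at 0.10 within set A but at -0.26 within set B. CENPE, the kinesin that moves chromosomes to the spindle equator, also had its highest value on control 3: it read 7.88, 7.88 and 8.21 in controls and 7.90, 7.70 and 7.92 in LPS cells (difference -0.15, adjusted p = 0.764). The Ndc80 complex subunits NDC80, NUF2 and SPC25, which grip microtubule ends, stood at -0.09, 0.05 and 0.05. CENPA, the histone variant that marks centromeres, stood at 0.04.

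The spindle motors, microtubule binders and cytokinesis genes included the 3 members with the smallest p. Of these 10 genes 7 lay below 0, 0 passed and the median was -0.06. ECT2, a protein needed for cytokinesis, read 8.65, 8.54 and 8.50 in controls and 8.88, 8.80 and 8.69 in LPS cells. Every LPS value was above every control, at a difference of 0.23 (SE 0.084, unadjusted p = 0.0172, limma adjusted p = 0.469), and it stood at 0.19 and 0.17 within sets A and B. The other ECT2 probe sets did not share this value, at 0.02 and -0.10. The one at -0.10 had a mean level of 6.02, below all array medians, so it says little about the transcript. ECT2 also had the lowest adjusted p reached by a member under any alternative tried, 0.191 with array weights.

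KIF20A, the kinesin MKLP2 that brings the passenger complex to the spindle midzone, read 9.67, 9.85 and 9.77 in controls and 9.58, 9.37 and 9.61 in LPS cells. All 3 LPS values were below all controls, at a difference of -0.25 (SE 0.095, unadjusted p = 0.0216, adjusted p = 0.507), and it stood at -0.20 within each array set. ASPM, a protein of spindle poles, read 10.12, 10.28 and 10.29 in controls and 10.04, 10.05 and 9.97 in LPS cells. Its groups were likewise separated, at -0.21 (SE 0.090, unadjusted p = 0.0344, adjusted p = 0.568), with -0.08 within set A and -0.31 within set B. Both of its dimmer probe sets stood at -0.12.

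DLGAP5, which stabilises spindle fibres near kinetochores, read 9.73, 9.97 and 10.03 in controls and 9.77, 9.64 and 9.91 in LPS cells. The groups overlapped, at -0.14 (adjusted p = 0.811). The remaining genes of this role lay nearer 0. The mitotic kinesins KIF11, KIF23 and KIF2C stood at 0.04, 0.02 and -0.05. The microtubule bundlers NUSAP1 and PRC1 stood at -0.07 and -0.06, and HMMR, a spindle assembly factor, at -0.06.

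Of the 3 genes that act at anaphase, 0 passed. CDC20, the activator of the anaphase-promoting complex, stood at 0.07, and UBE2C, its ubiquitin-conjugating enzyme, at 0.01. PTTG1, or securin, which restrains the protease that cuts sister chromatids apart, read 11.55, 11.92 and 11.76 in controls and 11.53, 11.31 and 11.83 in LPS cells. The groups overlapped, with a difference of -0.19 (SE 0.13, adjusted p = 0.789) that shrank from -0.12 among set A arrays to -0.02 among those of set B. The PTTG1 probe set carries a suffix counted here as a mark of possible cross-hybridisation (_x_at or _s_at), and PTTG1 has close relatives in the genome. The probe sets standing for ECT2, ASPM, BIRC5, TPX2, CENPF, CDC25B, CDC25C, MKI67 and further members carry such a suffix too.

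MKI67, whose protein coats mitotic chromosomes, spread most widely among the members. It read 8.19, 8.51 and 9.22 in controls and 8.46, 8.38 and 9.01 in LPS cells. The low and high values were shared out over both groups, with means of 8.64 ± 0.53 and 8.62 ± 0.34 (SD, n = 3 each) and a difference of -0.03 (SE 0.21, adjusted p = 0.99). The pooled SD within groups, 0.44, exceeded that of 99.9% of all genes. All 4 MKI67 probe sets had their lowest value on control 1 and their highest on control 3. Within the array sets MKI67 stood at 0.23 and 0.14, and without control 3 at 0.27. TOP2A, the topoisomerase that untangles sister chromatids, stood at -0.08.

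**Figure D2:**
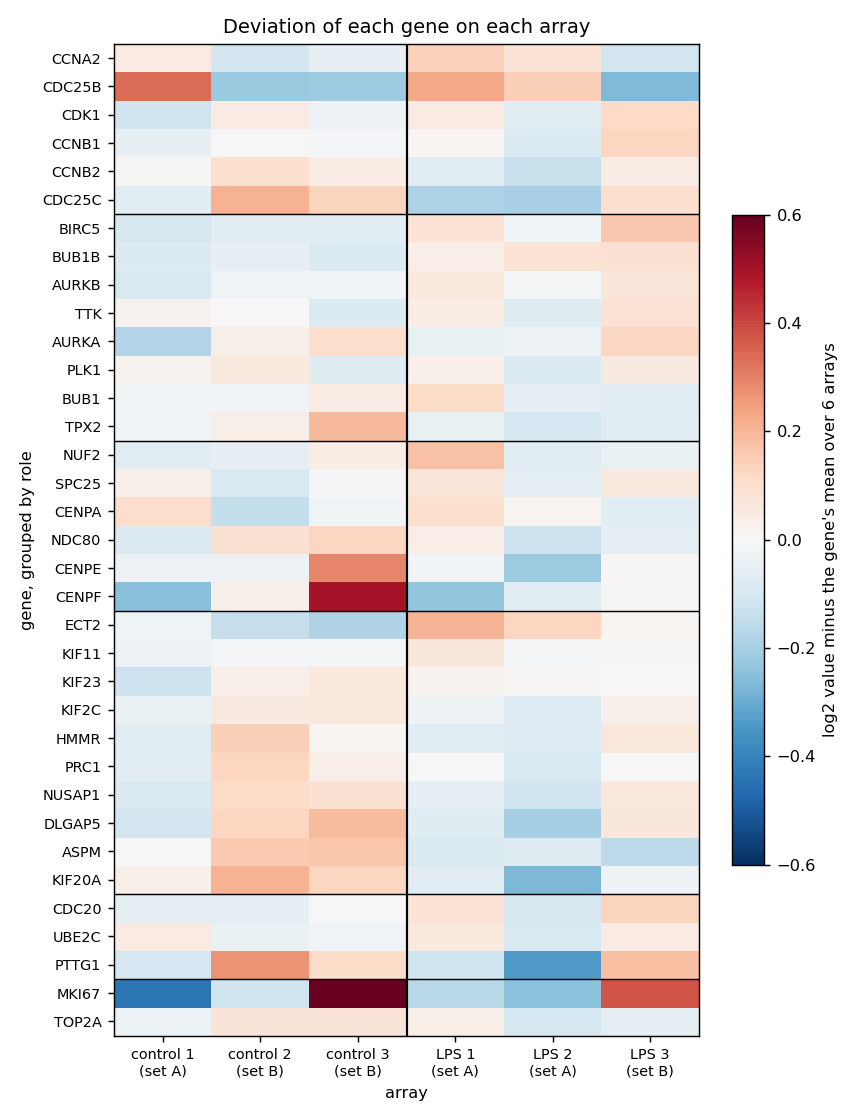
Each gene's log2 value minus its own mean over the 6 arrays, with genes in rows by role and arrays in columns, the controls left and the LPS arrays right of the black line. The strongest colours do not follow the groups: MKI67 is high on control 3 and LPS 3, CENPF on control 3, and CDC25B on control 1, LPS 1 and LPS 2.

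Arrays differed from each other in how the members stood as a whole. On LPS 2, 17 of the 35 members had their lowest value and 0 their highest, and 6 lay above their own mean. On control 1, 10 had their lowest value. LPS 3 had 24 members above their own mean, and control 3 had 21. The median deviation of the members was -0.08 on LPS 2 and -0.05 on control 1, the extremes among arrays on the low side. On the other arrays it lay between 0.03 and 0.05. Over all genes that median was between -0.01 and 0.0077 on every array. The G1/S and DNA replication genes moved the same way on part of the arrays, with medians of -0.07 on LPS 2, -0.06 on control 1, 0.08 on LPS 1 and 0.09 on LPS 3. On controls 2 and 3 they stood at -0.01 and -0.0072, where the members were at 0.03 and 0.04. The other mitosis genes described below had medians of -0.0040, -0.03 and 0.0084 on controls 1 to 3 and 0.04, -0.04 and 0.01 on LPS 1 to 3. The low values on LPS 2 and control 1 are therefore not shown to be particular to the members. Leaving out LPS 2 moved the members' median difference after LPS to 0.02, and leaving out control 1 moved it to -0.04.

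Set B against set A, with LPS in the fit, gave larger differences in some members than LPS did. MKI67 was higher in set B by 0.63 (limma adjusted p = 0.00133), PTTG1 by 0.35 (adjusted p = 0.00465) and CDC25C by 0.26 (adjusted p = 0.0346). CDC25B was lower in set B by 0.50: its difference was -0.50 (adjusted p = 0.000139), from 9.67, 9.57 and 9.49 in set A to 9.12, 9.12 and 9.07 in set B. These 4 of 35 members passed where 4.47% of all genes did. Of the 5966 genes with a mean level above 8, where most members lie, 265 passed as higher and 398 as lower. MKI67 passed by 3 of its 4 probe sets, at 0.63, 0.52 and 0.31, and the dimmest stood at 0.25. Of the 35 members 26 were above 0 in this comparison, as were 43.6% of all genes, and the medians were 0.08 and -0.01. The G1/S and DNA replication genes had a median of 0.10 in the same comparison, with 63.8% above 0 and 2 passing as higher. The 110 other mitosis genes measured had a median of 0.01, with 53.6% above 0, 4 passing as higher and 1 as lower. The sets were defined by the spiked transcripts and not by the samples' labels, and what else differs between them was not tested. No alternative to this fit was run.

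**Figure D3:**
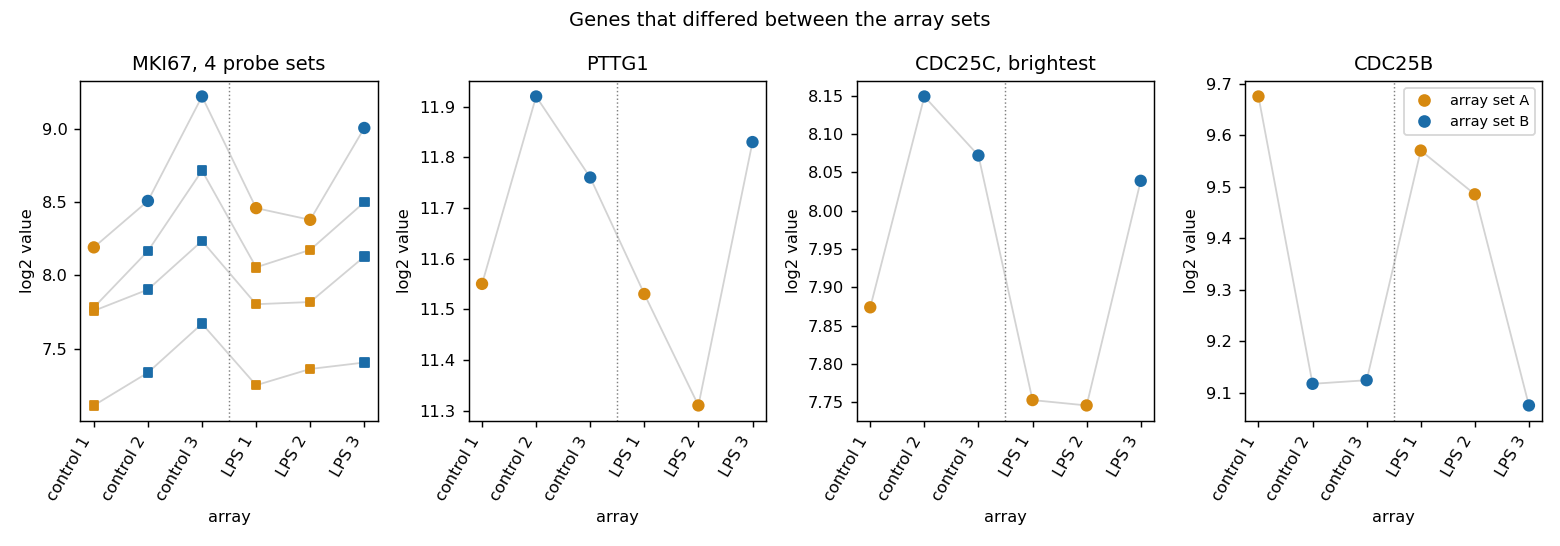
Log2 values of the 4 genes that differed between the array sets, by array, with set A in orange and set B in blue (circles: brightest probe set, squares: other MKI67 probe sets, grey lines join the values of 1 probe set and imply no order). CDC25B lies between 9.07 and 9.12 in set B and between 9.49 and 9.67 in set A, in control and LPS arrays alike.

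With the array set as a block, 0 members passed for LPS, and the lowest adjusted p among them was 0.315. In that fit 2.02% of all genes passed in either direction, and without the block 0.182% passed as higher and 0.207% as lower. The largest member values were then -0.20 for KIF20A, -0.20 for ASPM, 0.18 for ECT2, 0.18 for BIRC5 and 0.18 for MKI67. The median was -0.0092, with 18 members below 0, not all of them the ones below 0 without the block: CDC25B, CENPA, PLK1 and MKI67 changed sign. The median within set A alone was 0.0028, that within set B alone -0.02, and 21 of the 35 members had the same sign in both.

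**Figure D4:**
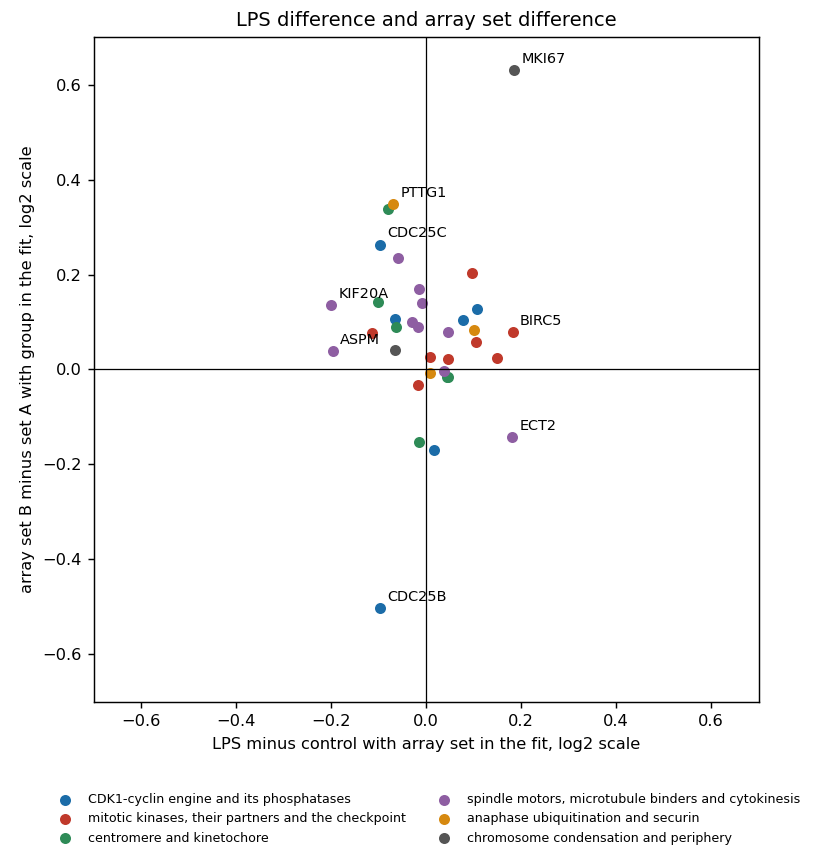
Each point is 1 gene, coloured by role, with the LPS difference with array set in the fit on the horizontal axis and the set B minus set A difference with group in the fit on the vertical axis, both on the log2 scale. Points spread further vertically, from -0.50 for CDC25B to 0.63 for MKI67, than horizontally, where they stay between -0.20 and 0.18.

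Of 18 members with several probe sets, 6 had every probe set on the same side of 0 (ASPM, CCNA2, CCNB1, HMMR, KIF23 and NUSAP1). The 34 probe sets that were not the brightest held 0 calls, 1 unadjusted p under 0.05 (CCNA2, above) and a median of 0.0057.

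The LPS differences can be set beside the promoter letters. The 23 members with CHR letters in a window had a median difference after LPS of -0.0071, ranging from -0.21 to 0.23. The 7 with a window but no CHR letters had a median of -0.05, ranging from -0.25 to 0.09. The 20 with both CHR and CCAAT letters had a median of -0.02 and the other 10 a median of -0.0026. No test was made of these medians. The ranges overlap in part, with no member lacking CHR letters above 0.09.

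A wider set of mitosis genes was read for comparison, in 6 lists of which 110 of 115 genes were measured. Of these 0 passed by their brightest probe set in either direction, with 58 above and 52 below 0 and a median of 0.01. The list with the highest median, 0.10, held further entry, exit and mitotic kinase genes (19 measured, 13 above 0). It was led by PKMYT1, an inhibitory kinase of CDK1, at 0.27 (adjusted p = 0.319), and CDC25A, a phosphatase of G1/S and G2/M, at 0.24 (adjusted p = 0.525). Among other kinetochore genes CENPK stood at 0.27 and SPC24 at -0.25, and among checkpoint genes TRIP13 at 0.23 and KNTC1 at -0.23. Cohesin and condensin genes were led by the condensin subunit NCAPD2 at -0.24 and the cohesin subunit STAG1 at 0.22. The list of further kinesin, spindle and centrosome genes had the lowest median, -0.04, and the centrosome genes CEP152 and CEP192 stood at -0.28 and -0.23 (adjusted p = 0.332 and 0.358).

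Subunits of the anaphase-promoting complex and separase had a median of 0.0031 over 14 genes, with ANAPC10 at 0.16 and ANAPC4 at 0.14. Among the 229 probe sets of the wider lists 1 passed, a dimmer one of ANAPC7, another subunit of this complex. It read 8.41, 8.37 and 8.30 in controls and 8.77, 8.77 and 8.85 in LPS cells, higher by 0.44 (SE 0.077, limma adjusted p = 0.0316). The brightest ANAPC7 probe set stood at 0.09 (adjusted p = 0.868), so the gene's 2 probe sets disagree. ANAPC7 is the gene that passed when probe sets marked for cross-hybridisation were left out, since the dimmer one then represents it. It was named after its values were seen, and that probe set no longer passed without any 1 of control 2, control 3, LPS 1, LPS 2 or LPS 3 (adjusted p from 0.0829 to 0.252), its difference staying between 0.41 and 0.45.

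The transcriptional regulators of G2/M genes held 1 call, among 25 of 26 measured. MYBL1, the A-MYB factor of germinal centre B cells and germ cells and a relative of MYBL2, read 8.30, 8.57 and 8.55 in controls and 8.05, 7.76 and 7.95 in LPS cells. It fell by 0.56 on the log2 scale (SE 0.096, limma adjusted p = 0.0288), and its 2 dimmer probe sets, near the array medians, stood at -0.03 and -0.05. The MYBL1 call was lost without any 1 of control 2, control 3, LPS 1, LPS 2 or LPS 3 (adjusted p from 0.0569 to 0.234), with the difference between -0.62 and -0.48. MYBL2 itself, the activator in cycling cells, stood at 0.06 (adjusted p = 0.937) and FOXM1 at 0.07 (adjusted p = 0.92). The MuvB subunit LIN9 stood at 0.14, as did E2F4, the E2F of the repressing complex, and neither passed.

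The E2F partner TFDP2 read 11.03, 11.01 and 11.18 in controls and 10.76, 10.67 and 10.83 in LPS cells. Its groups were separated, at -0.32, and it did not pass (adjusted p = 0.286), though it did with array set as a block, at -0.29 (adjusted p = 0.0469). Its other probe sets stood at -0.08, -0.21 and 0.05. TFDP1, its paralog, stood at 0.09 by its brightest probe set and at 0.56 by its dimmest, which passed (adjusted p = 0.0175) and was noticed after its values were seen. That call was lost without any 1 of control 2, control 3, LPS 1 or LPS 2 (adjusted p from 0.0936 to 0.163).

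**Figure D5:**
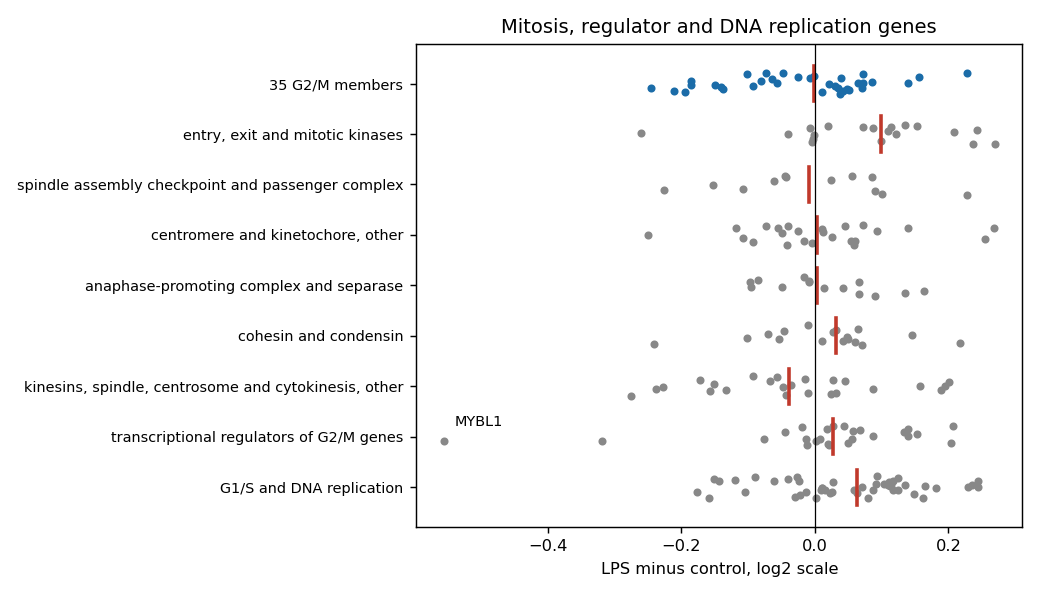
LPS minus control on the log2 scale for the 35 genes (blue) and for the genes of the wider lists (grey), 1 point per gene at its brightest probe set, with red bars at list medians and random vertical scatter. MYBL1, at -0.56, is the labelled gene that passed the test, and the list medians lie between -0.04 and 0.10.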

How the data were processed

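The authors deposited 1 value per probe set and array, taken here as log2 values because they lie between 5.46 and 14.81. The log base is inferred, and the background correction, summary and normalisation are not given in the sources used here. No detection calls were used, and the number of arrays limits the precision. Tests excluded 62 control probe sets of the platform.

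Gene symbols came from the platform annotation, updated through gene identifiers with RefSeq (GRCh38.p14): 41091 probe sets had 1 symbol, 1801 several and 11721 none, and 41037 matched. All probe sets of the 6 arrays were fitted on group with limma 3.58.1 under R 4.3.3 (empirical Bayes with intensity trend, two-sided, Benjamini-Hochberg over 54613 probe sets, threshold 0.05), and the steps were tested on simulated data. Lists are described by counts and medians, with no test of a list. Per-array values are given for the 12 members with the smallest p and for CDK1, MKI67 and PLK1. In other lists, calls, the 2 smallest p and fixed regulators are named. AURKB, CDC25B and other single values were added after being seen.

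The array sets were parted at the widest gap in the mean of 18 spiked control probe sets (0.22, next widest 0.081). Alternatives are listed in the closing section. The members, lists and alternatives were chosen with earlier results of these data known.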

Additional observations from a re-analysis of the deposited data

How the results depend on the processing

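Under 15 alternatives to the fit (blocks on replicate number or array set, quantile normalisation, median centring, only the brighter probe sets, above the median of all, no intensity trend, array weights, no probe sets marked for cross-hybridisation, the mean over probe sets, and each array left out) and at a threshold of 0.10, 0 members passed, and the lowest adjusted p was 0.191. The count of members below 0 ran from 15 to 24, the 15 of 28 measured without probe sets marked for cross-hybridisation included. Leaving out single arrays gave medians from -0.04 to 0.02. Of the members 21 kept 1 sign and 14 changed it, among them ECT2. It was at -0.10 without probe sets marked for cross-hybridisation, because a probe set with a mean below all array medians then represents it. In the wider mitosis lists 1 gene, ANAPC7, passed under that same setting, for the same reason, and 0 under the others. The calls on the MYBL1, ANAPC7 and TFDP1 probe sets, followed after seeing the data, kept their direction under 14 alternatives each and were lost in 5, 5 and 4 of them, all with 1 array left out. Over all probe sets the number of calls, 144, ranged from 10 without LPS 2 to 734 with array set as a block.

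Replicate numbers were not taken to pair the samples: deviations from the group means correlated at 0.44, -0.04 and 0.23 for numbers 1 to 3. With replicate number as a block, 0 members passed, the median stayed at -0.0017 with 18 members below 0, and 498 probe sets passed in all.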

Other observations

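Genes of G1/S and DNA replication, the preceding phase of the cycle, had a median LPS difference of 0.06 on the log2 scale over 47 genes, with 0 passing the limma test. Of them 33 lay above 0 and 29.8% below. The share below 0 was 49.2% over all genes and 42% over genes with a mean level above 8. At an unadjusted p under 0.05 stood 4, all higher, where the share over all genes was 4.97%. On that side stood 583 of the 5966 genes with a mean level above 8. The list was led by RFC5, a subunit of the clamp loader, at 0.24 (adjusted p = 0.468), which read 9.73, 9.76 and 9.80 in controls and 10.06, 9.91 and 10.02 in LPS cells. CDC6, which loads the replicative helicase, also stood at 0.24 (adjusted p = 0.472), at 9.79, 9.57 and 9.70 in controls and 9.99, 9.92 and 9.89 in LPS cells. In both genes the groups were separated. The difference between this list and the mitosis genes was not tested.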
